A study of Bos taurus with 6 samples.

Results

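The genes of the nuclear pore and of nuclear transport were compared between blastocysts that developed from oocytes matured with melatonin (MT) and control blastocysts. They were the rows of the expression table whose gene symbol names a nucleoporin (NUP followed by a digit, POM121, NDC1, TPR, SEH1L, AAAS), an importin alpha (KPNA), a receptor of the importin beta family (KPNB1, IPO, TNPO, XPO, CSE1L) or a component of the Ran system (RAN, RCC1, RANGAP1, RANBP1, RANBP2 and RANBP3). RANBP2 binds Ran but sits on the filaments of the pore and is counted with the pore genes. The rule found 57 of the 36075 genes in the table, 28 of the nuclear pore and 29 transport receptors and Ran genes, each under 1 identifier. POM121C and POM121L2, which are in the RefSeq gene table of the bovine assembly ARS-UCD2.0, were not among the symbols. All blastocysts were bovine (Bos taurus) and were produced in vitro from slaughterhouse oocytes that matured for 22 h, were fertilized with thawed frozen semen and were cultured to the blastocyst stage. The maturation medium held 1e-07 mol/L MT in the MT-treated group and no MT in the control group. Each group had 3 libraries, 1 from each of 3 production runs, and a library came from a pool of 3 whole blastocysts, so that it averages embryos and mixes inner cell mass, trophectoderm and hypoblast. Expression is given as TPM, a unit that corrects reads for transcript length and for library size, so that levels of different genes can be set side by side. TPM keep no read counts and the sequencing depth of the libraries was not analysed here, so no counting interval is given.

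The nuclear pore complex is the gate between nucleus and cytoplasm. Its scaffold is built of an outer ring (the Y complex) and an inner ring, is anchored by membrane nucleoporins, and carries nucleoporins rich in phenylalanine-glycine repeats that fill the channel, together with filaments on the cytoplasmic face and a basket on the nuclear face. Importin alpha binds a classical nuclear localization signal and is carried inward by importin beta (KPNB1), other receptors of the importin beta family bind their cargo directly, and exportins carry cargo outward. The direction is set by the GTPase Ran, which is loaded with GTP on chromatin by RCC1 and hydrolyses it in the cytoplasm with the help of RANGAP1 and RANBP1. In a cleaving embryo the pores are taken apart and rebuilt at each division.

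In each control library 42 or 43 of the 57 genes were above 0 TPM and 36 or 37 reached 1 TPM, compared with 52 or 53 and 49 or 50 in the MT-treated libraries. The same held for the whole table, in which 8854 to 8953 genes were above 0 in the control and 14372 to 14408 in the MT-treated libraries. Pearson's r of log2(TPM + 1) over the 11953 tested genes was at least 0.991 within a group and at most 0.546 between the groups (a correlation across genes, which are not independent replicates). Markers of the embryo's own cell types moved with the groups, as did most genes of the table. Of all tested genes 61.6% were called higher and 34.1% lower in the MT-treated group. In the control libraries 33.8% of all tested genes were listed at 0 throughout. The hypoblast list summed to 0.2 to 0.44 TPM in control and 61.2 to 69.6 TPM in MT-treated blastocysts, with PDGFRA and HNF4A listed at 0 in the control and FOXA2 at 0 in all 6 libraries. Of the 5 inner cell mass markers 2 were higher, 2 lower and 1 not called in the MT-treated group. NANOG was listed at 0 and SOX2 at 0 to 0.02 TPM in control blastocysts, whereas KLF17 fell from 44.6 ± 1.76 to 5.53 ± 0.327 TPM (SD, n = 3 each), LIN28B was lower and PRDM14 was not called, and the list summed to 57.01 to 59.97 TPM against 32.6 to 33.6 TPM. In the trophectoderm list CDX2 was listed at 0 in each control pool and at 15.0 to 17.2 TPM in MT-treated blastocysts. IFNT2, also on that list, was not among the symbols of the table. Of the 6 markers found, 5 (CDX2, GATA3, TFAP2C, TEAD4 and KRT18) were higher in the MT-treated group. KRT8, the most abundant, was the marker that fell, with 8695 ± 145 TPM in control and 6905 ± 133 TPM in the MT-treated pools (SD, n = 3 each). The 6 markers summed to 11328.1 to 11671.9 and 10456.5 to 10811.9 TPM. Of 5 cumulus and granulosa cell markers in the table, 3 were at 0 in every library and CYP19A1 was at 0 in all but 1, and the fifth, FSHR, kept the sum at 17.2 to 19.2 and 15.0 to 17.1 TPM. Of 8 maternal oocyte transcripts 6 were at 0 in every library, and the list summed to 45.6 to 49.3 and 21.0 to 23.4 TPM. The part of these differences in the results on the pore and transport genes was not tested, and in whole blastocysts a smaller number of cells of a type and less RNA per cell cannot be told apart.

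Of the 57 genes, 51 reached the 1 TPM in at least 3 libraries that was required for testing. MT-treated blastocysts had higher levels of 28 (54.9%) and lower levels of 22 (43.1%) by limma, with p-values adjusted after Benjamini and Hochberg across every tested gene and a threshold of 0.05. Over all 11953 tested genes 61.6% were called higher and 34.1% lower, together 95.7%, so that being called was the rule in this table and not particular to these genes. Called genes that differed 2-fold or more, in TPM + 1, numbered 22 higher and 12 lower of the 51, beside 51.0% and 19.6% of all tested genes. The values of the 2 groups did not overlap for any of the 51 genes, as for 96.1% of the tested genes. Only RAN was tested and not called. The median log2 fold change was 0.55 over the 51 genes and 1.12 over all tested genes. Of the 51, 9 (17.6%) were listed at 0 in all 3 control libraries, beside 33.8% of all tested genes, and 13 (25.5%) had a control mean under 0.1 TPM, beside 38.9%. KPNA5 was the only one of them listed at 0 in all 3 MT-treated libraries. All 10 tested genes at 0 in a whole group were called. They could pass the filter only through the other group, and the group at 0 has no spread. Their calls were thus close to fixed in advance. A value at or near 0 can also be a failed estimate, and genes that dividing cells need, such as NUP155, NUP205 and TPR at 0 and KPNB1 at 0.01 to 0.04 TPM, are among those in the control libraries. Such genes are given by their TPM, and their place in the plot of fold changes depends on the 1 TPM added before the logarithm. When only the 37 genes that reached 0.1 TPM in each of the 6 libraries were counted (a limit set once the values had been seen), 15 were higher and 21 lower (40.5% and 56.8%), beside 38.8% and 53.7% of the 6635 tested genes that meet it. The median log2 fold changes of these genes were -0.52 and -0.23. In this restricted count the shares lay near those of all genes that meet the limit.

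The split also moved with the scaling of the libraries. After quantile normalization, by which all libraries share one distribution, 19 genes were higher and 28 lower of the 51, beside 46.4% and 44.4% of all tested genes under the same scaling. Centring each library on the median of the genes with at least 1 TPM everywhere removed a shift of -0.48 (MT-treated minus control, log2 scale), after which 29 were higher and 18 lower, beside 70.4% and 25.4% of all tested genes. Differences between genes within a library do not depend on such a shift, and they were large, as the plot of fold changes by role shows. In each role with more than 1 tested gene, some genes were higher and others lower. The counts per role that follow are small and stand beside 61.6% higher and 34.1% lower of all tested genes. Among tested genes with at least 0.1 TPM in all libraries these shares were 38.8% and 53.7%.

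**Figure D1:**
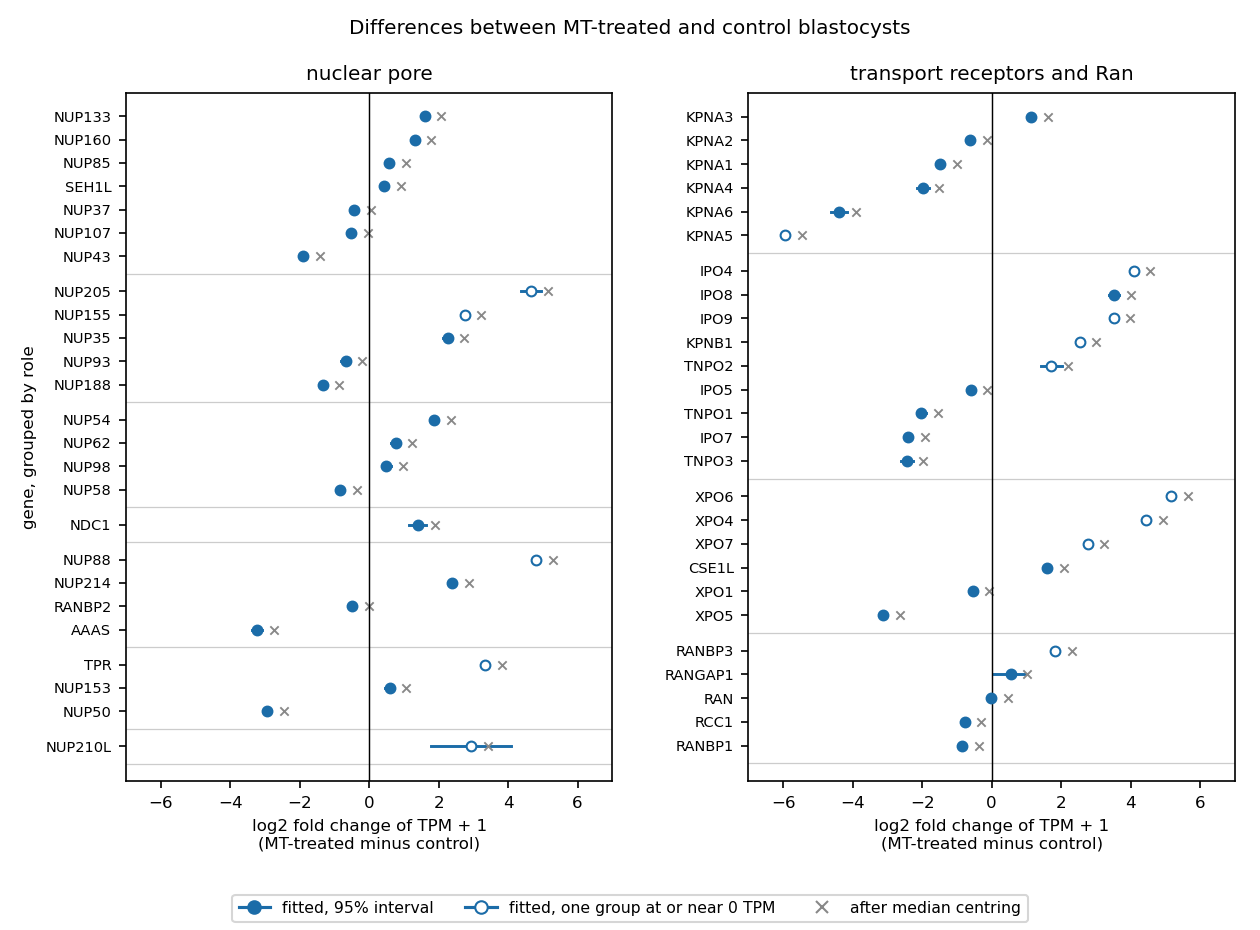
Log2 fold change of TPM + 1 (MT-treated minus control, n = 3 libraries each) for the 51 tested genes, by role, with nuclear pore genes on the left and transport receptors and Ran genes on the right. Bars are 95% intervals of the limma fit (many are narrower than the point), open points are genes with one group at 0 or a control mean under 0.1 TPM, and crosses are the values after median centring. The filled points run from -4.399 for KPNA6 to 3.52 for IPO8, and RAN lies at -0.02.

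Of the outer ring, the Y-shaped scaffold, 7 genes matched the symbol rule, which leaves out its subunits SEC13 and AHCTF1 (described with the partner genes). The 7 were detected in every library, and 4 rose (57.1%) and 3 fell (42.9%) in the MT-treated group. Of all tested genes with at least 0.1 TPM in all libraries, 38.8% were higher and 53.7% lower. NUP133 (ENSBTAG00000004965), a stem subunit, had 9.88, 10.1 and 9.22 TPM in control and 31.2, 32 and 31.4 TPM in the MT-treated pools, a log2 fold change of 1.6 ± 0.04 (SE, limma, adjusted p = 6.16e-08). NUP160, another scaffold subunit, had 7.52, 7.55 and 8.09 and 20.4, 20.6 and 21.02 TPM. Both genes were thus 2.67 to 3.24 times as high in MT-treated blastocysts, with every MT-treated value above every control value. A lack of overlap, in either direction, was shared by 96.1% of all tested genes. NUP43 (ENSBTAG00000010196), a peripheral WD-repeat subunit, had 33.5, 33.4 and 34.6 and 8.58, 8.17 and 8.2 TPM, a log2 fold change of -1.902 ± 0.03 (SE, limma, adjusted p = 1.14e-08), which is a 4.07-fold lower level. The smaller changes were a rise of SEH1L, a WD-repeat subunit shared with the GATOR complex, from 32.95 ± 0.5203 to 45.1 ± 1.97 TPM (SD, n = 3 each) and a fall of NUP107, the partner of NUP133 in the stem, from 37.9 ± 0.454 to 26.1 ± 0.696 TPM (SD, n = 3 each). NUP85 rose to 1.53 times its control level. NUP37 was the most abundant of the 7 in control blastocysts, at 52.3, 50.9 and 51.8 TPM, and had 37.9, 39.97 and 35.8 TPM in MT-treated blastocysts. The direction of its fall depended on the scaling, with log2 fold changes of -0.44 as deposited and 0.04 (adjusted p = 0.398 by limma) after median centring, and NUP107 was then at -0.04 and no longer called. Among the 7, levels in control blastocysts ranged from 7.72 ± 0.321 TPM for NUP160 to 51.7 ± 0.741 TPM for NUP37, and in MT-treated blastocysts from 8.32 ± 0.229 TPM for NUP43 to 45.1 ± 1.97 TPM for SEH1L (SD, n = 3 each).

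In the inner ring, which holds the membrane-hugging core of the scaffold, 2 of 5 genes were listed at 0 in every control library. NUP205 (ENSBTAG00000011127), a large scaffold subunit, was one of them and had 19.9, 26.4 and 26.9 TPM in MT-treated blastocysts. The other was NUP155, with 5.58, 5.96 and 5.72 TPM in MT-treated blastocysts. NUP35, which binds membranes and NUP155, rose from 11.3, 12.9 and 11.3 to 59.97, 60.9 and 60.3 TPM, a log2 fold change of 2.26 ± 0.05 (SE, limma, adjusted p = 4.7e-08), and became the most abundant subunit of the ring. NUP188 (ENSBTAG00000010613), the large paralog of NUP205, moved the other way, from 33.9, 35.05 and 34.7 to 13.4, 12.6 and 13.2 TPM, a log2 fold change of -1.34 ± 0.03 (SE, limma, adjusted p = 5.77e-08). NUP93, the linker that binds either NUP188 or NUP205, fell from 39.6, 35.8 and 36.6 to 23.96, 23.1 and 22.01 TPM, a 1.62-fold lower level. Together, 3 genes of the ring were higher and 2 lower, and within the NUP188 and NUP205 pair the share of NUP188 went from the whole of the listed TPM to less than that of NUP205.

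The central channel was described by 4 genes that carry phenylalanine-glycine repeats, of which 3 rose and 1 fell. NUP54 (ENSBTAG00000010955) rose most, from 4.74, 5.27 and 4.71 to 20.6, 20.5 and 20.5 TPM, a log2 fold change of 1.87 ± 0.04 (SE, limma, adjusted p = 5.64e-08). NUP62, its partner in the channel trimer, had 18.4, 16.6 and 16.2 TPM in control and 29.2, 28.5 and 30.9 TPM in MT-treated blastocysts. NUP58, the third subunit of that trimer, fell from 30.3, 30.8 and 30.1 to 16.03, 16.8 and 16.9 TPM, a log2 fold change of -0.84 ± 0.03 (SE, limma, adjusted p = 4.53e-07). The ratio of NUP54 to NUP58 within a library was 0.161 ± 0.00836 in the control and 1.24 ± 0.0415 in the MT-treated group (SD, n = 3 each), a measure that is not changed when a whole library is multiplied by a factor. NUP98, whose transcript also encodes the outer ring subunit NUP96, had the smallest change of the channel genes, from 14.2, 14.6 and 12.97 to 19.9, 19.5 and 20.7 TPM, and was not called after quantile normalization (log2 fold change 0.095, adjusted p = 0.206 by limma).

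The membrane ring was represented by NDC1 and NUP210. NDC1, a transmembrane nucleoporin that anchors the scaffold, rose from 0.63, 0.73 and 1.09 to 3.68, 3.66 and 3.99 TPM, a log2 fold change of 1.402 ± 0.098 (SE, limma, adjusted p = 1.28e-05), but it was low in both groups and its log2 fold change was -1.13 after quantile normalization. NUP210 was listed at 0 in all 6 libraries.

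Of the 5 cytoplasmic filament genes, 4 were tested, and 2 rose and 2 fell. NUP88 (ENSBTAG00000011507), a subunit of the export platform at the cytoplasmic face, had 0.02, 0 and 0 TPM in control and 27.2, 27.6 and 27.1 TPM in MT-treated blastocysts. Its partner in that platform, NUP214 (ENSBTAG00000021896), rose from 14.5, 14.5 and 14.2 to 77.7, 84.04 and 77.8 TPM, a log2 fold change of 2.39 ± 0.04 (SE, limma, adjusted p = 7.56e-09), and was the most abundant of the 28 pore genes in MT-treated blastocysts, below SEC13 and RAE1, pore proteins that the symbol rule leaves out. AAAS (ENSBTAG00000020179), which encodes aladin, the product of the gene altered in triple A syndrome, fell from 33.6, 34.5 and 34.4 to 2.92, 2.48 and 2.91 TPM, a log2 fold change of -3.22 ± 0.06 (SE, limma, adjusted p = 1.1e-08) and a 12.3-fold lower level. RANBP2, the giant filament protein that binds Ran and carries SUMO ligase activity, had 22.04, 22.6 and 22.98 and 16.2, 16.1 and 15.2 TPM, and its fall was no longer called after median centring (log2 fold change -0.003, adjusted p = 0.948 by limma), against -0.48 as deposited and -1.07 (adjusted p = 2.15e-05 by limma) after quantile normalization. NUP42, a partner of the export factor GLE1, was too low for testing, with 0.46, 0.26 and 0.3 TPM in control blastocysts and 0 after MT. The NUP214 to RANBP2 ratio within a library was 0.6404 ± 0.0186 in the control and 5.04 ± 0.212 in the MT-treated group (SD, n = 3 each).

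Of the 3 nuclear basket genes 2 were higher and 1 lower. NUP50 (ENSBTAG00000017652), a mobile nucleoporin that helps to release cargo from importin alpha, was the most abundant of the 28 pore genes in control blastocysts at 69.2, 66.6 and 69 TPM and fell to 8.38, 7.5 and 8.37 TPM, a log2 fold change of -2.93 ± 0.05 (SE, limma, adjusted p = 8.74e-09). TPR (ENSBTAG00000060237), the coiled-coil protein that forms the struts of the basket, was listed at 0 in each control pool but reached 9.08, 9.5 and 8.69 TPM in MT-treated blastocysts. NUP153, which links the basket to the ring, rose from 4.65, 4.61 and 4.06 to 7.06, 7.22 and 7.22 TPM (log2 fold change 0.59, adjusted p = 4.64e-05 by limma), a direction that was reversed after quantile normalization, to -1.69. NUP50 accounted for 93.9% of the summed TPM of the 3 basket genes in control and 33.2% in MT-treated blastocysts. Of the relatives of pore genes, NUP62CL was listed at 0 in all libraries. NUP210L, a relative of NUP210, was listed at 0 in each control pool but reached 10.4, 2.52 and 10.1 TPM in MT-treated blastocysts, with replicate 2 far below the others, and it was not called after quantile normalization (adjusted p = 0.194 by limma).

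**Figure D2:**
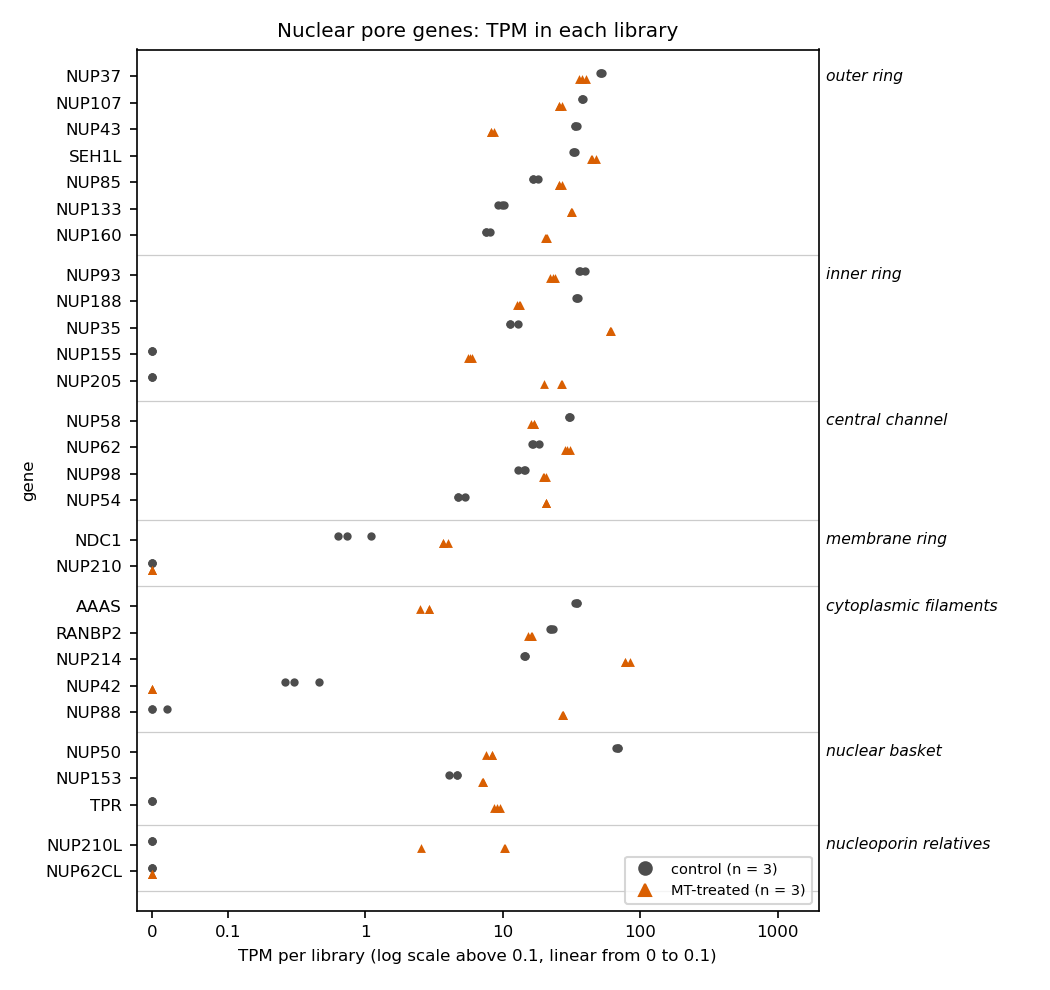
TPM in each of the 6 libraries (control, circles, n = 3; MT-treated, triangles, n = 3) for the 28 nuclear pore genes by position in the pore, on an axis that is logarithmic above 0.1 and linear below. Replicates lie close together for most genes, and NUP155, NUP205, TPR and NUP210L sit at 0 in control blastocysts only, whereas NUP50, AAAS and NUP43 sit lower in the MT-treated libraries.

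MT treatment went with higher levels of 16 (64%) and lower levels of 9 (36%) of the 25 tested pore genes, close to the 61.6% and 34.1% of all tested genes. With quantile normalization 12 were higher and 11 lower, beside 46.4% and 44.4% of all tested genes. With median centring 16 were higher and 6 lower, beside 70.4% and 25.4%. Of the 20 tested pore genes above 0 in all 6 libraries, 11 were higher and 9 lower, beside 40.6% and 52.4% of all genes so tested. The summed level of the 28 pore genes was 486 ± 2.45 TPM in control and 571 ± 5.13 TPM in MT-treated blastocysts, compared with 2451 ± 17.7 and 1932 ± 23.9 TPM for the 29 transport receptors and Ran genes (SD, n = 3 each). Of the 26 tested genes of the second group, 12 were higher (46.2%) and 13 lower (50%), and with quantile normalization 7 were higher and 17 lower, beside the same 46.4% and 44.4%. With median centring 13 were higher and 12 lower, beside 70.4% and 25.4%. Of the 20 tested genes of this group above 0 in all 6 libraries, 7 were higher and 12 lower, beside 40.6% and 52.4%.

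Importin alpha, the adaptor that recognizes the classical import signal, had 5 of 6 tested paralogs that fell and 1 that rose, where 34.1% of all tested genes, and 53.7% of those with at least 0.1 TPM in all libraries, were lower. The summed importin alpha level was 472 ± 0.988 TPM in control and 234 ± 4.93 TPM in the MT-treated group (SD, n = 3 each). KPNA2 (ENSBTAG00000012225), the dominant paralog of dividing cells, had 269, 269.9 and 268 TPM in control and 179, 176 and 172 TPM in the MT-treated pools, a log2 fold change of -0.61 ± 0.02 (SE, limma, adjusted p = 1.9e-07). KPNA1, KPNA5 and KPNA6 form a subfamily, and all of them fell. KPNA5 (ENSBTAG00000026673) had 62.7, 60.3 and 58.05 TPM in control blastocysts and was listed at 0 in every MT-treated library. KPNA6 (ENSBTAG00000002896), a paralog known from the mouse as a maternal factor of early cleavage, fell from 29.6, 30.1 and 34.6 to 0.42, 0.72 and 0.48 TPM, a log2 fold change of -4.399 ± 0.095 (SE, limma, adjusted p = 3.19e-08). KPNA1 fell from 83.3, 84.4 and 82.5 to 30.3, 28.5 and 28.6 TPM, a 2.86-fold lower level. In all of these the MT-treated values lay below every control value. The groups did not overlap, in either direction, for 96.1% of all tested genes.

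The other subfamily, KPNA3 and KPNA4, split. KPNA3 (ENSBTAG00000004850) rose from 10.6, 11.1 and 10.7 to 25.6, 24.9 and 24.4 TPM, a log2 fold change of 1.14 ± 0.03 (SE, limma, adjusted p = 1.58e-07), whereas KPNA4 fell from 18.1, 16.9 and 17.5 to 3.3, 4.17 and 3.63 TPM, a log2 fold change of -1.98 ± 0.07 (SE, limma, adjusted p = 4.63e-07). The KPNA4 to KPNA3 ratio within a library was 1.62 ± 0.0951 in the control pools and 0.148 ± 0.0194 in the MT-treated pools (SD, n = 3 each), so that the more abundant paralog of the pair differed between the groups. KPNA7, the paralog known from oocytes and cleavage-stage embryos, was listed at 0 in all 3 control libraries and at 0, 0.06 and 0 TPM in MT-treated blastocysts, and was not tested. KPNA2 made up 56.8, 57.1 and 56.9% of the summed importin alpha TPM in control blastocysts and 75.04, 75.1 and 75.1% in the MT-treated libraries. KPNA3 went from 2.29% to 10.7%, and KPNA5 and KPNA6 from 12.8% and 6.66% to 0% and 0.231%. The order of paralogs by level was thus KPNA2, KPNA1, KPNA5, KPNA6, KPNA4 and KPNA3 in the control and KPNA2, KPNA1, KPNA3, KPNA4, KPNA6 and KPNA5 in the MT-treated group, and the values of neighbours among these 6 did not overlap in either order. NUP50, which displaces cargo from importin alpha in the nucleus, fell as well, whereas CSE1L, which returns importin alpha to the cytoplasm, rose from 12.8, 13.2 and 13.1 to 41.7, 42.95 and 40.5 TPM. The ratio of KPNA2 to CSE1L within a library was 20.6 ± 0.335 in the control and 4.22 ± 0.1104 in the MT-treated group (SD, n = 3 each).

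**Figure D3:**
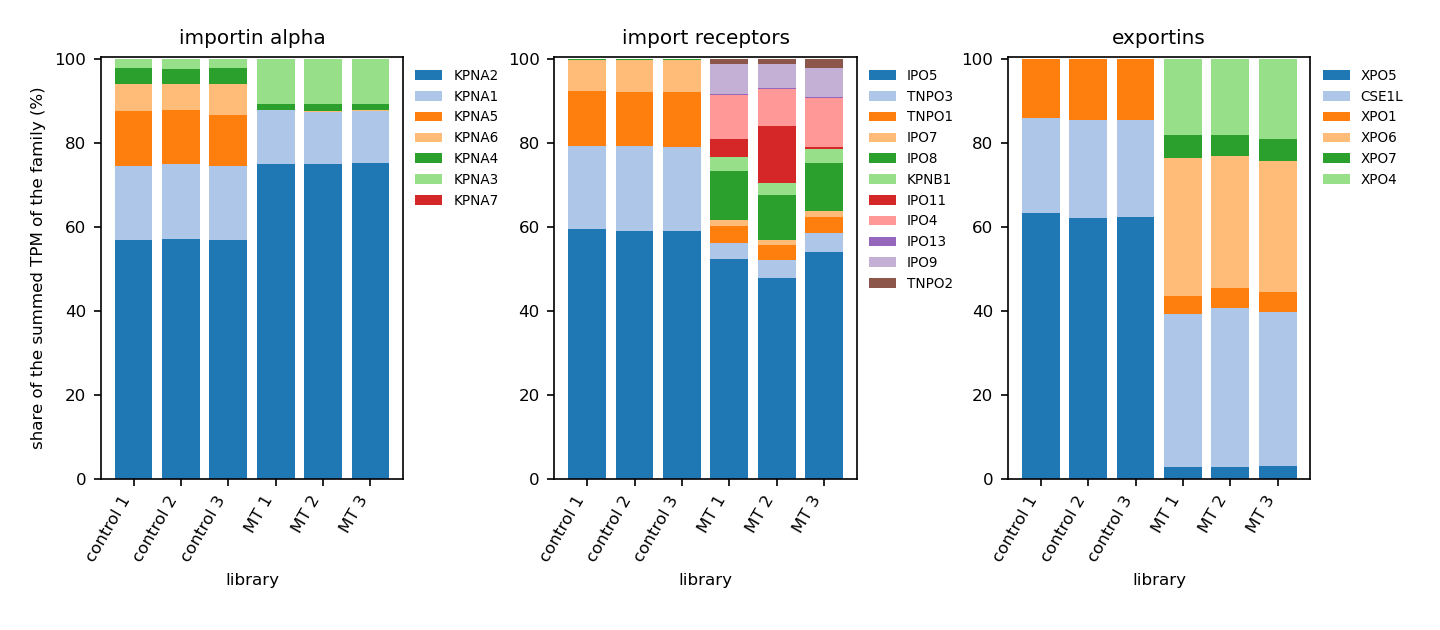
Share of each gene (%) in the summed TPM of its family in each library, for importin alpha (7 genes), import receptors of the importin beta family (11 genes) and exportins (6 genes). Replicates of a group have nearly the same composition except for IPO11, while KPNA5 is at 0% and KPNA6 at 0.231% on average in the MT-treated bars and XPO5, which fills 62.6% of the exportin TPM in control, gives way to CSE1L, XPO6 and XPO4.

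Of the 11 import receptors of the importin beta family, 9 were tested. Of these, 5 rose (55.6%) and 4 fell (44.4%), beside 61.6% and 34.1% of all tested genes. Of the 5 that rose, 4 had a control mean under 0.1 TPM. KPNB1 (ENSBTAG00000006586), importin beta itself, had 0.01, 0.01 and 0.04 TPM in control and 4.83, 5.05 and 4.8 TPM in MT-treated blastocysts. It passed the filter through the MT-treated libraries only, and its log2 fold change was -0.44 after quantile normalization. IPO5 was the most abundant import receptor in both groups, with 123, 122 and 122 and 79.5, 82.9 and 78.3 TPM and a log2 fold change of -0.6 ± 0.03 (SE, limma, adjusted p = 9.64e-07). IPO5 imports ribosomal proteins and histones, as do IPO7, IPO4 and IPO9 in part. IPO7 (ENSBTAG00000027722) fell from 15.3, 15.4 and 15.7 to 2.1, 2.06 and 2.14 TPM, a log2 fold change of -2.41 ± 0.03 (SE, limma, adjusted p = 3.27e-09). Its close paralog IPO8 (ENSBTAG00000014106) moved the other way, from 0.59, 0.69 and 0.58 to 17.9, 18.7 and 16.5 TPM, a log2 fold change of 3.52 ± 0.06 (SE, limma, adjusted p = 8.57e-09) and the largest ratio between groups (28.5-fold) of the rising genes with at least 0.1 TPM in all libraries. The transportins TNPO1, which imports RNA-binding proteins such as HNRNPA1, and TNPO3, which imports splicing factors rich in serine and arginine, fell together. TNPO3 (ENSBTAG00000004992) went from 40.6, 41.5 and 40.95 to 6.03, 7.53 and 6.71 TPM, a 6.07-fold lower level. TNPO1 went from 27.1, 26.97 and 27.1 to 6.23, 6.1 and 5.44 TPM, a 4.57-fold lower level (adjusted p = 6.35e-08 by limma).

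The remaining import receptors were listed at 0 in every control library. IPO4 had 15.9, 15.4 and 16.9 TPM and IPO9 had 10.8, 10.2 and 10.1 TPM in MT-treated blastocysts. TNPO2, the paralog of TNPO1, had 1.97, 2 and 3.04 TPM, and its direction was reversed by quantile normalization. IPO13, which also exports cargo, had 0.45, 0.37 and 0.37 TPM and was not tested. IPO11 reached 1 TPM in 2 libraries only and was not tested either, with 6.46, 23.4 and 0.83 TPM in MT-treated blastocysts, where replicate 2 stood far above the others. The summed level of the 11 genes was 206 ± 0.279 TPM in control and 157 ± 14.9 TPM in the MT-treated group (SD, n = 3 each), and most of the MT-treated spread came from IPO11, whose share of it ran from 0.57% to 13.5%.

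Of the 6 exportins 4 rose and 2 fell, near the 61.6% and 34.1% of all tested genes, and 3 of the 4 that rose had a control mean under 0.1 TPM. XPO5 (ENSBTAG00000018970), which exports precursors of microRNAs, fell from 35.8, 35.1 and 35.4 to 3.11, 3.06 and 3.45 TPM, a log2 fold change of -3.12 ± 0.04 (SE, limma, adjusted p = 4.84e-09) and an 11.1-fold lower level. XPO1 (ENSBTAG00000013254), the general exportin for leucine-rich export signals, fell from 7.94, 8.18 and 8.25 to 4.99, 5.41 and 5.32 TPM, a log2 fold change of -0.55 ± 0.04 (SE, limma, adjusted p = 1.56e-05), but was no longer called after median centring (log2 fold change -0.07, adjusted p = 0.134 by limma), whereas quantile normalization gave -2.34 (adjusted p = 3.02e-08 by limma). CSE1L (ENSBTAG00000005957) rose with a log2 fold change of 1.604 ± 0.03 (SE, limma, adjusted p = 2.21e-08) and replaced XPO5 as the most abundant exportin. The remaining genes were at or near 0 in control blastocysts. XPO6 (ENSBTAG00000010309), which exports actin with profilin, had 0.03, 0.01 and 0.04 TPM in control and 37.5, 35.5 and 34.4 TPM in MT-treated blastocysts. XPO4, which carries cargo in both directions, was listed at 0 in each control pool but reached 20.7, 20.5 and 21.1 TPM in MT-treated blastocysts. XPO7 had 0.02, 0.03 and 0.02 and 6.19, 5.77 and 5.85 TPM, a low level whose direction was reversed by quantile normalization (log2 fold change -0.33). Summed over the 6 genes, the level was 56.7 ± 0.116 TPM in control and 113 ± 1.81 TPM in the MT-treated group (SD, n = 3 each). In the control group XPO5 made up 62.6% of this sum and in the MT-treated group 2.85%, while XPO6 went from 0.04701% to 31.8% and CSE1L from 23.02% to 37.03%.

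In the Ran system 2 of 5 genes rose, 2 fell, and the GTPase itself was not called. RAN (ENSBTAG00000055033) was the most abundant of all 57 genes, with 1056, 1074 and 1059 TPM in control and 1039, 1055 and 1055 TPM in the MT-treated pools, a log2 fold change of -0.02 ± 0.01 (SE, limma, adjusted p = 0.189) and a 95% interval of -0.05 to 0.01. It was -0.01 without control replicate 2 or without MT-treated replicate 1, and not called either way. After median centring its log2 fold change was 0.46 and called (adjusted p = 8.8e-08 by limma), since centring adds the same shift to all genes. RCC1 (ENSBTAG00000003788), the exchange factor that loads Ran with GTP on chromatin, fell from 98.1, 100.4 and 93.6 to 53.7, 59.1 and 56.6 TPM, a log2 fold change of -0.78 ± 0.04 (SE, limma, adjusted p = 4.31e-06). RANBP1 (ENSBTAG00000006656), a cofactor of GTP hydrolysis, fell from 533, 547 and 548 to 306, 295 and 298 TPM, a log2 fold change of -0.85 ± 0.02 (SE, limma, adjusted p = 4.43e-08). The ratio of RAN to RCC1 within a library was 10.9 ± 0.333 in the control pools and 18.6 ± 0.749 in the MT-treated pools, and that of RAN to RANBP1 1.96 ± 0.0236 and 3.51 ± 0.096 (SD, n = 3 each). Both ratios were higher in every MT-treated library than in every control library.

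RANGAP1 (ENSBTAG00000012481), the GTPase-activating protein, had 13.2, 12.7 and 12.8 TPM in control and 15.2, 26.6 and 17.9 TPM in the MT-treated pools, a log2 fold change of 0.55 ± 0.19 (SE, limma, adjusted p = 0.0309) and a 95% interval of 0.08 to 1.03. MT-treated replicate 2 was the highest value, and without it the log2 fold change was 0.33 (adjusted p = 0.0105 by limma). The call was lost when control replicate 1, 2 or 3 or MT-treated replicate 3 was left out (log2 fold changes of 0.54 to 0.61, adjusted p = 0.0643 to 0.0761 by limma), and after quantile normalization its log2 fold change was -0.01 (adjusted p = 0.977 by limma). RANBP3, a cofactor of XPO1, was listed at 0 in each control pool but reached 2.56, 2.54 and 2.56 TPM in MT-treated blastocysts, a low level whose direction was reversed by quantile normalization.

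**Figure D4:**
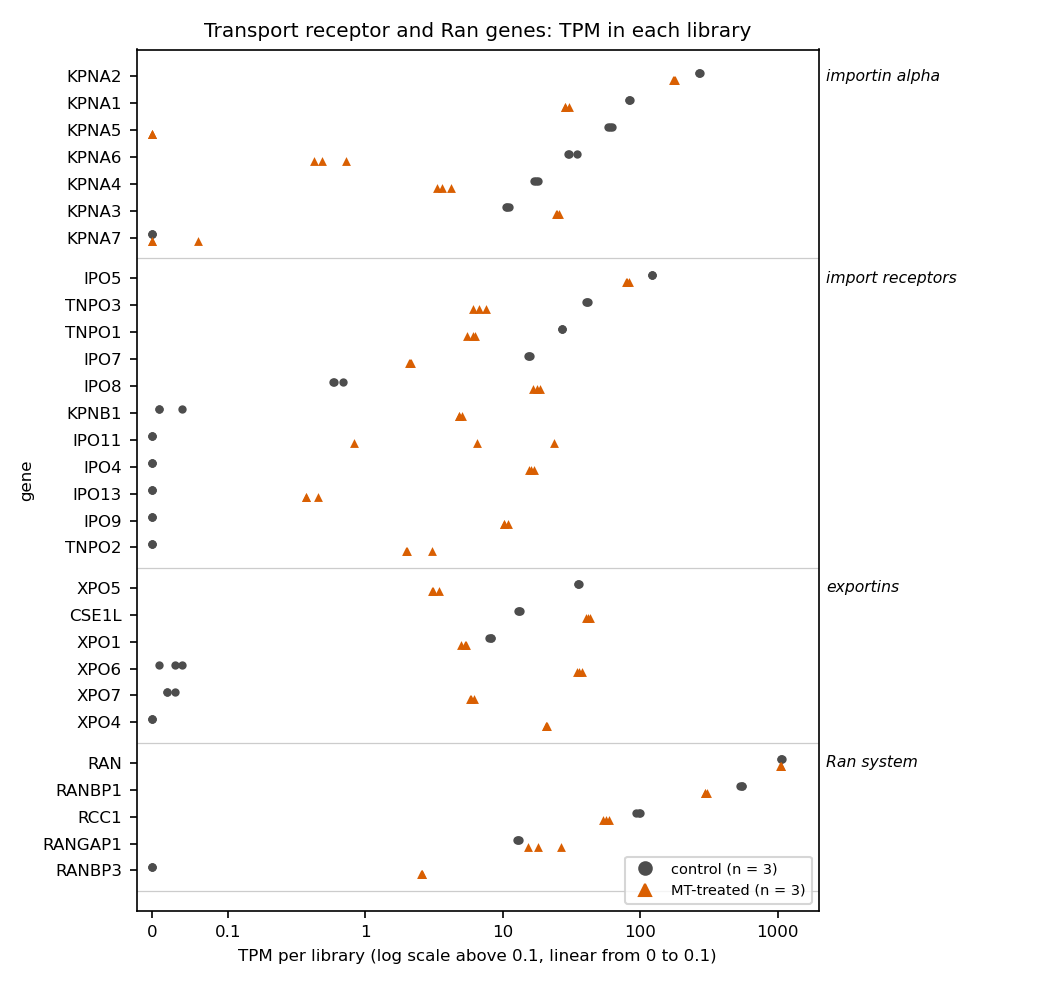
TPM in each of the 6 libraries (control, circles, n = 3; MT-treated, triangles, n = 3) for the 29 transport receptors and Ran genes by role, on an axis that is logarithmic above 0.1 and linear below. RAN is the highest point in all libraries, KPNA5 and KPNA6 drop in the MT-treated libraries, and KPNB1, XPO6, XPO4, XPO7, IPO4 and IPO9 are at or near 0 in control blastocysts only.

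Genes that work beside these were read from lists written from general knowledge, but with earlier results of these data known. Of 15 tested genes for other pore and transport proteins, 12 were higher, 1 lower and 2 not called in MT-treated blastocysts, with a median log2 fold change of 1.86, where 61.6% and 34.1% of all tested genes were higher and lower. The largest rises were those of RANGRF, a Ran release factor listed at 0 in every control library and at 36, 36.8 and 39.1 TPM in MT-treated blastocysts, and RANBP17, an importin relative listed at 0 and at 21.9, 22.4 and 23.2 TPM. NUTF2, the import factor of Ran itself, was the gene that fell, from 306, 301 and 344 to 228, 225 and 259.6 TPM. XPOT, the exportin of transfer RNA, rose from 5.05, 5.23 and 5.02 to 20.9, 21.4 and 21.3 TPM. SEC13, an outer ring subunit shared with the COPII coat, rose from 23.8, 26.4 and 23.8 to 149, 145 and 149 TPM, and AHCTF1, which seeds the pore on chromatin, was listed at 0 in control blastocysts and at 6.44, 6.29 and 6.2 TPM in MT-treated blastocysts. GLE1, the partner of NUP42, rose from 0.49, 0.37 and 0.51 to 21.7, 21.5 and 20.5 TPM, whereas NUP42 was at 0 in the MT-treated libraries.

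Of 17 tested genes of messenger RNA export 8 were higher and 9 lower. None of them was at 0 in a control library, and the shares were 61.6% and 34.1% over all tested genes but 38.8% and 53.7% over those with at least 0.1 TPM in all libraries. MCM3AP, the scaffold of the TREX-2 complex at the basket, rose from 1.89, 1.84 and 1.84 to 52.6, 55.1 and 43.2 TPM and THOC6 from 8.07, 7.78 and 7.48 to 37.5, 35.1 and 34.98 TPM. THOC2, the core of the THO complex, fell from 142, 146 and 151 to 17.2, 17.4 and 17.9 TPM and DDX19B, the helicase that acts at NUP214, from 79.8, 79.5 and 82.6 to 19.2, 18.7 and 18.4 TPM. NXF1, the main export receptor of messenger RNA, fell from 21.98, 22.8 and 23.6 to 8.88, 8.87 and 8.69 TPM while its cofactor NXT1 rose from 50.0, 48.9 and 49.1 to 116, 102 and 109.9 TPM. In the nuclear lamina and inner membrane list, 7 of 10 tested genes were higher, 2 lower and 1 not called, beside the 61.6% and 34.1% of all tested genes. LMNB1, the lamin B1 gene, was listed at 0 in each control pool and at 19.9, 21.04 and 21.4 TPM in MT-treated blastocysts, and SUN2 rose from 0.69, 1.03 and 0.94 to 34.9, 38.2 and 29.5 TPM. LMNA, which encodes the A-type lamins, fell from 125, 128 and 129.7 to 16.8, 14.5 and 14.5 TPM and EMD, which encodes emerin, from 199, 193 and 201 to 60.5, 62.9 and 61.8 TPM.

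The spread between replicates differed between genes, and for RANGAP1, NUP210L, IPO11 and RAN it was not small beside the difference between the groups. Over the 36 genes of the pore and transport set with at least 1 TPM in all control libraries, the median coefficient of variation was 1.90% and the highest 8.64%, in KPNA6. Over the 49 such genes in the MT-treated libraries the median was 3.53% and the highest 58.2%, in NUP210L, followed by RANGAP1, TNPO2 and NUP205. All genes of the table with at least 1 TPM in the same libraries had medians of 3.04% and 5.08%. MT-treated replicate 2 was the highest of its group for RANGAP1 and IPO11 and the lowest for NUP210L.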

How the data were processed

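RNA of whole bovine blastocysts was sequenced in 6 libraries, 3 control and 3 MT-treated, with 3 blastocysts pooled per library. Reads were checked by the authors with fastp and FastQC 0.11.9, aligned with STAR 2.7.9a and counted with featureCounts (Subread 1.6.3). The paper names the assembly ARS-UCD1.3 and the labels ARS-UCD1.2. The paper names the Smart-seq2 protocol and the labels a TruSeq kit. The deposited values are TPM, rounded to 2 decimals; how the authors turned counts into TPM is not given in the sources used here. Groups and replicate numbers came from the labels.

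Genes with at least 1 TPM in at least 3 libraries were fitted as log2(TPM + 1) across all genes with limma 3.58.1 (lmFit, eBayes with an intensity trend) under R 4.3.3, with Benjamini-Hochberg adjustment at 0.05. The authors used DESeq2 on counts, which TPM do not allow. The fit was tested on simulated data. For 1 gene, 3 against 3 libraries, an exact permutation test (two-sided) cannot give a p under 0.1, so none was run. P-values measure the spread between these pools. Python 3.11.15 with pandas 2.3.3 and numpy 2.4.6 handled the tables, and matplotlib 3.10.9 drew the plots.

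The members and the lists of roles, partners and markers were chosen with earlier results of these data known. Every member was accounted for. TPM per library were given for all of importin alpha and the Ran system, for members at 0 in 1 group, and in each role for the most abundant gene, the largest rise and fall and the smallest change, with others added where a partner is described. Partner genes beyond the largest 2 rises and 2 falls per list were chosen after their values were seen. The fit was repeated without a filter, with a minimum of 5 TPM, with a pseudocount of 0.1, after quantile normalization or median centring, without the trend, with a replicate block, with each library left out with the tested genes kept, and on genes above 0 in all 6 libraries. The count over genes that reached 0.1 TPM everywhere was chosen once the values had been seen. A fold change of TPM + 1 understates the change of low genes, and none is printed as a ratio for a gene at 0 in a group. No reference sequence was used here.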

Additional observations from a re-analysis of the deposited data

How the results depend on the processing

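Of the 51 tested genes, 37 kept their direction and their call under every alternative in which they were fitted. A pseudocount of 0.1, no filter (55 genes tested), a minimum of 5 TPM (46 tested), eBayes without the trend and the replicate block changed no gene's direction or call, and with the replicate block 28 genes were higher and 22 lower, as without it. By the paper, the treatments of a production run were carried out side by side, so libraries of both groups may be paired by run. The main fit left such pairing out. Nothing states that a replicate number stands for 1 production run. Over 5988 genes the deviations of same-numbered libraries correlated at 0.0942, -0.000741 and 0.15, with MT-treated replicate 2 not correlating best with its own number. Leaving out 1 library gave 27 to 28 higher and 22 lower genes, and of the 51 changed only the call of RANGAP1. Quantile normalization reversed RANBP3 (-0.198), RANGAP1 (-0.012), XPO7 (-0.328), KPNB1 (-0.436), TNPO2 (-0.251), NDC1 (-1.131) and NUP153 (-1.686). Of these, RANBP3 and TNPO2 rest on the value given to 0 in the control libraries, and XPO7 and KPNB1 on control values of 0.01 to 0.04 TPM. Quantile normalization also ended the calls of NUP98 and NUP210L, and called 7 transport receptors and Ran genes higher in place of 12. Median centring reversed RAN (0.462) and NUP37 (0.041, not called) and ended the calls of NUP107, RANBP2 and XPO1. Among genes above 0 in all 6 libraries, which leaves 40 of the 51 to be tested, 18 were higher, 7 of them transport receptors and Ran genes, and 21 lower, beside 40.6% and 52.4% of all genes so tested. The cause of the dependence on the scaling was not tested. Sequencing depth was not analysed here, and the counting error of values near 0 cannot be read from TPM.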
